A study of Mus musculus with 24 samples.

Results

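Tbx1, Cdc45, Gnb1l, Tssk1, Tssk2, Gsc2 and Vpreb2 are genes of the Df(16)A deletion that gave little signal in the prefrontal cortex. They were chosen for low signal from the listed genes of the deleted segment, as the rows of the deposited table that carry a single gene symbol from this set. Each of the 7 genes had 1 such row, out of 26 listed deleted genes measured and 18820 genes in all. They held the 7 lowest wild-type signals of the 26. The brightest of them was Tbx1, at 6.56 on the log2 scale, and the next listed gene above was Txnrd2, at 7.30. Because signal chose the members, and earlier results for these mice were known, levels are given as description.

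The mutants were male mice aged 8 weeks, heterozygous for the deletion, which the labels write Df16(A)+/-, on a C57BL6/J background. The controls were wild-type (WT) littermates of the same sex, age and background. There were 12 arrays per genotype, each from total RNA of prefrontal cortex, with expression given as log2 values. The deletion is carried by every cell and leaves the other copy of the segment in place, and no further allele or agent is named. The labels call the arrays replicates without saying that each came from a separate animal, so p-values measure the spread between these arrays. Mutant arrays 5, 9 and 10 by replicate number stood apart from the rest in an earlier principal component analysis of these data. Without them the median difference of the 7 genes was -0.07, against -0.06 with all arrays, and the same number passed the test. The tissue is bulk, so fewer expressing cells and less RNA per cell cannot be told apart. The 9 neuronal markers had a median wild-type signal of 11.8, against 7.59 for all genes, and none of them passed the test between genotypes.

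The 7 genes act mostly outside the adult cortex. Tbx1 is a T-box transcription factor of the embryonic pharynx and heart, and its loss is held to cause much of the cardiac disease of 22q11.2 deletion. Cdc45 is part of the helicase that opens DNA at replication forks, and so belongs to dividing cells. Gnb1l encodes a WD-repeat protein resembling the beta subunit of G proteins. Tssk1 and Tssk2 are kinases of the maturing spermatid, Gsc2 is a homeobox gene related to goosecoid, and Vpreb2 encodes part of the surrogate light chain of the pre-B cell receptor. On an array, a probe set reports the RNA of its target together with whatever else hybridises to it. The table carries no detection call, and a low value does not say that the gene is silent.

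The sequences before the starts of 4 of these genes are shown because they differ in a property that the choice did not use, the number of CpG dinucleotides. They are the 250 bases before the annotated start in the RefSeq windows of assembly GRCm38.p6, 5′ to 3′ on the gene's own strand, with CpG in capitals. All lie on chromosome 16, Cdc45 at chr16:18811973-18812222 (minus strand), Gsc2 at chr16:17915028-17915277 (minus), Tssk1 at chr16:17893953-17894202 (plus) and Tssk2 at chr16:17898387-17898636 (plus).
Cdc45: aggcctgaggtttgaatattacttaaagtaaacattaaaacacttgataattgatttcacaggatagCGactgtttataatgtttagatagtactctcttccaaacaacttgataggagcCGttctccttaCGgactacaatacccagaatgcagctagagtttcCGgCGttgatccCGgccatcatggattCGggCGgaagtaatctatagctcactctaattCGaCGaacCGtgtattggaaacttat
Gsc2: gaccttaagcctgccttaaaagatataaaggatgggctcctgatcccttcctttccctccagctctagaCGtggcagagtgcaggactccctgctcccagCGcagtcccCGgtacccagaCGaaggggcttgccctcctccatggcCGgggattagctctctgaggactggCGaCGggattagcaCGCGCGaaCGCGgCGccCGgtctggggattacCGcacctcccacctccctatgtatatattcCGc
Tssk1: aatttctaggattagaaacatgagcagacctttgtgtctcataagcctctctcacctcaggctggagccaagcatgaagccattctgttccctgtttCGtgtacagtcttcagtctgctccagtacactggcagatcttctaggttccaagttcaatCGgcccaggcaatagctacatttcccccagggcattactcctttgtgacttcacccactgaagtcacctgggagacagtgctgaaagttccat
Tssk2: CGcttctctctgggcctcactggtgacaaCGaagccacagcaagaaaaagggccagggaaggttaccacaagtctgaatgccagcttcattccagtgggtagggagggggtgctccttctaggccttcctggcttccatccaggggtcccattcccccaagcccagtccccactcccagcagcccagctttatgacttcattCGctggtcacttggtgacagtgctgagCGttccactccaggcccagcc

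Tssk1 had 2 CpG and Tssk2 had 4 in these windows, and the window of Vpreb2, not shown, had the fewest, 0. Cdc45 had 11, Gnb1l 12, Gsc2 16 and the 2 annotated starts of Tbx1 had 10 and 17. Over 23 windows of 18 other deleted genes the count ran from 3 to 38 with a median of 17, and over all 32851 RefSeq windows the median was 6. A count of 4 or fewer was found in 44.4% of all windows, and in 3 of the 8 windows of the 7 genes. Among the 23 windows of other deleted genes it was found in 2. The Cdc45 window shares 179 bases with that of Ufd1, which is transcribed in the other direction from a start 321 bases away. Cdc45, with 11 CpG, fell in mutants and Gsc2, with 16, did not pass the test.

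The wild-type signals of the 7 genes were first set beside those of genes hardly transcribed in cortex, the 1167 measured olfactory, vomeronasal and trace amine receptor genes. Probe sets differ in how strongly they hybridise, so the order of signals between genes is not an order of transcript abundance. The receptors had a median wild-type signal of 4.18, with 90% of them between 3.07 and 5.55. Tssk1, at 5.10 ± 0.19 (SD, n = 12), was reached or exceeded by 12.3% of the receptors. For Tssk2, at 5.30 ± 0.19, the share was 8.66%. Both spermatid kinases therefore lay within the range that holds most receptors. Vpreb2, at 5.74 ± 0.11, was reached by 3% of the receptors, and Gsc2, at 6.20 ± 0.21, Cdc45, at 6.25 ± 0.10, and Gnb1l, at 6.27 ± 0.08, by 0.857% each. Tbx1, at 6.56 ± 0.11, was reached by 0.514%. The gaps between Gsc2, Cdc45 and Gnb1l were smaller than their SDs, and Tssk1 and Tssk2 lay about an SD apart. Among all genes measured, the 7 lay above between 19.9% and 38.9% of them.

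**Figure D1:**
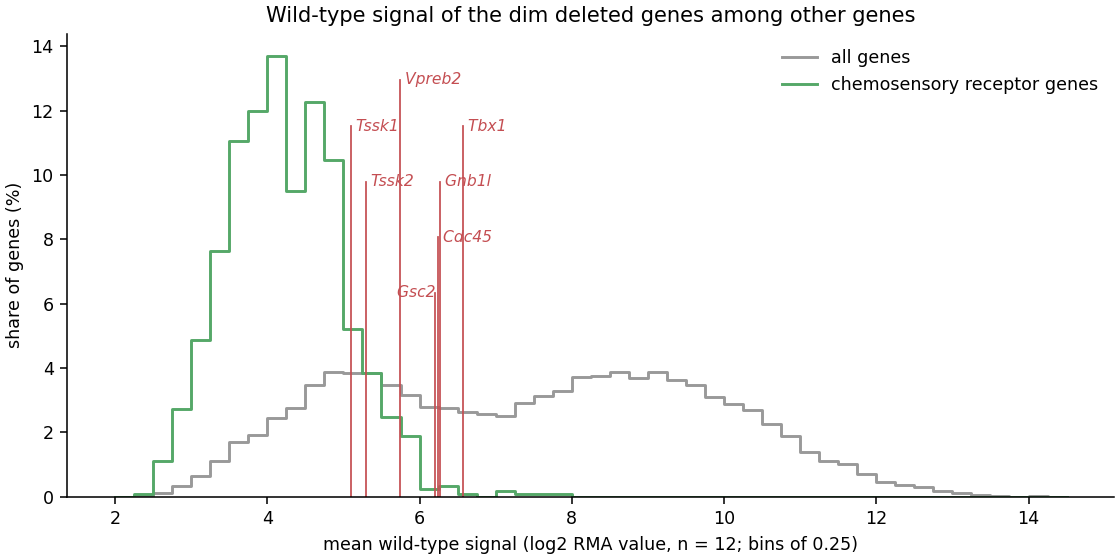
Distribution of mean wild-type signal (x axis, log2 RMA value, bins of 0.25) over all 18820 genes and over 1167 chemosensory receptor genes, as the share of each set (y axis, %). Red lines mark the 7 dim deleted genes, from Tssk1 at 5.10 to Tbx1 at 6.56, at the upper edge of the receptors and below most of the other genes.

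Genotypes were then compared to see how much of the signal was lost with a copy of each gene. Of the 7 genes, 2 fell in mutants, Cdc45 and Gnb1l, none rose and 5 did not pass the test. Over all 18820 genes, 0.228% were called lower (limma, adjusted p under 0.05). The median log2 difference, mutant minus wild type, was -0.06 over the 7 genes, against -0.0014 over all genes. For the 19 other measured genes of the list it was -0.71, and 18 of those 19 fell, Mir185 being the exception. A halving of signal would be a log2 difference of -1. The 95% interval of the difference excluded -1 in all 7 genes, and also in the 19 others.

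Cdc45, the replication gene, had the largest loss of the 7. Its signal in wild types ran from 6.05 to 6.40 with a median of 6.25, and in mutants from 5.75 to 6.10 with a median of 5.98. The ranges met only at their edges, with 10 of the 12 mutants below every wild type. The log2 difference was -0.30 ± 0.04 (SE), a loss of 18.9% of the wild-type signal with an interval of 13.9% to 23.6% (limma, adjusted p = 5.81e-05).

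Gnb1l, the WD-repeat gene, had wild-type signals from 6.15 to 6.38 with a median of 6.26 and mutant signals from 5.85 to 6.08 with a median of 6.004. No mutant reached the lowest wild type. Such complete separation in this direction was seen in 0.106% of all genes, and in 18 of the 19 other deleted genes. Mutants differed by -0.27 ± 0.03 (SE, log2), a loss of 17.3% with an interval of 13.2% to 21.3% (limma, adjusted p = 1.21e-05). The arrays were numbered in the order of the samples, with 7 mutants and 5 wild types among the first 12 arrays. The labels name no batch. Gnb1l differed by -0.37 there (limma, adjusted p = 0.00114) and by -0.18 among the last 12 (adjusted p = 0.165). Cdc45 gave -0.27 and -0.30 in these parts of the numbering, with adjusted p = 0.0634 and 0.0704 (limma). Whether Gnb1l differed between the parts was not tested.

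Tbx1, the transcription factor for which the deletion is best known, had wild-type signals from 6.37 to 6.71 with a median of 6.58. Mutant signals ran from 6.17 to 6.62 with a median of 6.43. The groups overlapped, with 4 of 12 mutants below every wild type and 11 of 12 below the wild-type mean. The log2 difference was -0.17 ± 0.05 (SE), a loss of 10.9% with an interval of 4.66% to 16.7%, and did not pass the test over all genes (limma, adjusted p = 0.119).

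The other 4 genes had intervals of the log2 difference that included 0. Tssk1 ran from 4.87 to 5.40 in wild types and from 4.78 to 5.31 in mutants, with medians of 5.03 and 5.05. Tssk2 ran from 4.98 to 5.55 and from 4.87 to 5.68, with medians of 5.34 and 5.28. In both spermatid kinases the groups overlapped over nearly their whole range. The log2 difference was -0.06 ± 0.07 (SE) for Tssk1 and -0.03 ± 0.08 for Tssk2 (limma, adjusted p = 0.778 and 0.914). The losses were 3.97% with an interval of -5.75% to 12.8%, and 2.2% with one of -10.1% to 13.2%. Tssk1 and Tssk2 are adjacent, related genes, and whether their probe sets tell them apart was not tested.

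Gsc2, the homeobox gene, was the 1 member with a positive value. Its signal ran from 5.73 to 6.56 with a median of 6.21 in wild types, and from 5.80 to 6.44 with a median of 6.30 in mutants. All 12 mutants lay within the wild-type range. The log2 difference was 0.06 ± 0.07 (SE; limma, adjusted p = 0.814), with -0.02 among the first 12 arrays and 0.12 among the last 12. Its interval allowed a loss of at most 6.62%.

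Vpreb2, the surrogate light chain gene, ran from 5.47 to 5.89 with a median of 5.76 in wild types and from 5.40 to 5.99 with a median of 5.79 in mutants. Of the 12 mutants, 2 lay below every wild type and 4 above every wild type. Genotypes differed by a log2 value of -0.0012 ± 0.06 (SE; limma, adjusted p = 0.996), with an interval that allowed a loss of at most 8.71%. Its close relative Vpreb1, which lies outside the deleted segment, gave 0.05 ± 0.10. Cross-hybridisation between the pair was not tested.

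**Figure D2:**
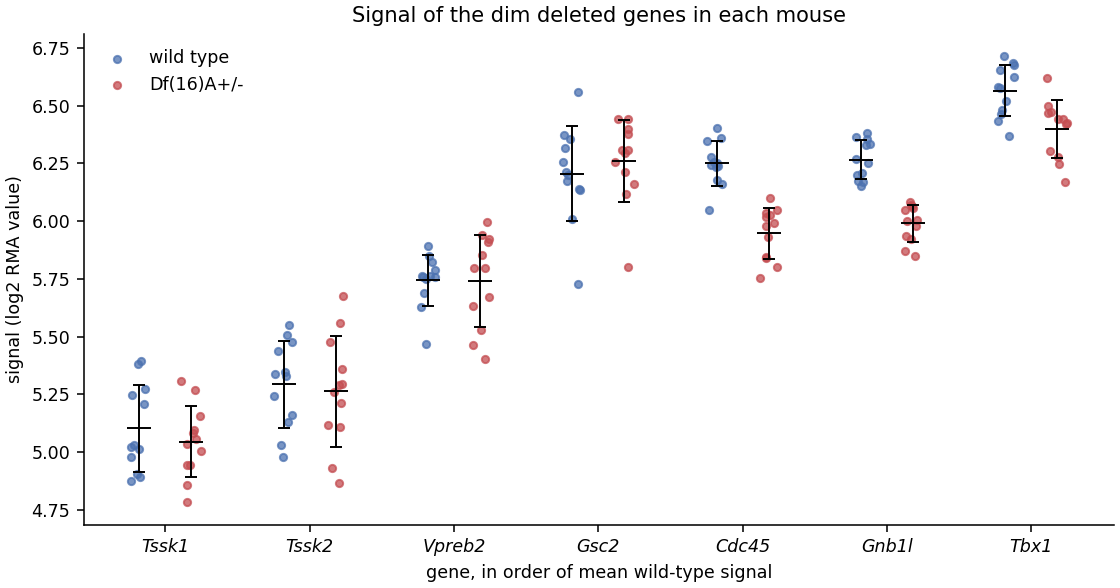
Signal of the 7 dim deleted genes (y axis, log2 RMA value), 1 point per array, in wild types (blue, n = 12) and mutants (red, n = 12), with mean and SD in black and genes ordered by mean wild-type signal. Gnb1l separates the genotypes, Cdc45 nearly does, and the 4 genes to the left overlap.

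Over all arrays, dim genes as a class were shifted slightly the other way. The 3579 genes outside the list with wild-type signals in the range of the 7 had a median log2 difference of 0.03, and 66.2% of them lay above 0. The receptors had a median of 0.03. After quantile normalization these medians were 0.01 and -0.0045, and the median of the 7 genes became -0.09. Among the first 12 arrays they were 0.0068 for genes in that range and -0.0094 for the receptors, and among the last 12 they were 0.05 and 0.06. Without mutant arrays 5, 9 and 10 they were 0.02 and 0.0053. The part of this shift in the differences of the dim deleted genes was not tested.

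The measured loss was next set against wild-type signal over the 26 listed deleted genes with a single-symbol row. Across these genes the log2 difference was more negative where the wild-type signal was higher, with Pearson's r = -0.89 and Spearman's rho = -0.88 (n = 26 genes, which share the same 24 arrays and are not replicates). A straight line had a slope of -0.15 per log2 unit of signal. Over the 19 genes other than the dim ones r was -0.63 and the slope -0.09, and without Mir185 these were -0.64 and -0.06. Over all listed genes but Mir185 the slope was -0.15. A further row of the segment, which names Septin5 and Gp1bb together and so stands for no single gene, was brighter than every listed gene, at 11.47 in wild types. Its log2 difference of -0.56 was smaller in size than those of most bright deleted genes. Wild-type signal enters both axes. With signal taken from arrays 1 to 12 and the difference from arrays 13 to 24 the slope was -0.15, and it was also -0.15 with the parts exchanged.

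In shares of signal, the 7 genes had a median loss of 3.97% and a range from -3.91% to 18.9%. The 18 other genes, with Mir185 set aside, lost between 31.1% and 45.5%. The 9 dimmer of these had a median loss of 35.8% and the 9 brighter one of 41.4%. The largest losses were those of Slc25a1, the mitochondrial citrate carrier, Ufd1, a cofactor in protein degradation, and 2510002D24Rik, with 45.5%, 45.5% and 43.3%. No listed gene reached 50%. On the linear scale of the array the wild-type signal of Cdc45 was 76.1 units and the loss 14.4 units. Gnb1l lost 13.3 of 76.9 units and Tbx1 10.3 of 94.7. Ufd1 lost 481 of 1057 units. A line of mutant on wild-type linear signal over the 25 genes without Mir185 had a slope of 0.565 and an intercept of 23.2 units. The brightest genes weigh most in such a line, so its intercept is not a measured offset of the dim genes.

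**Figure D3:**
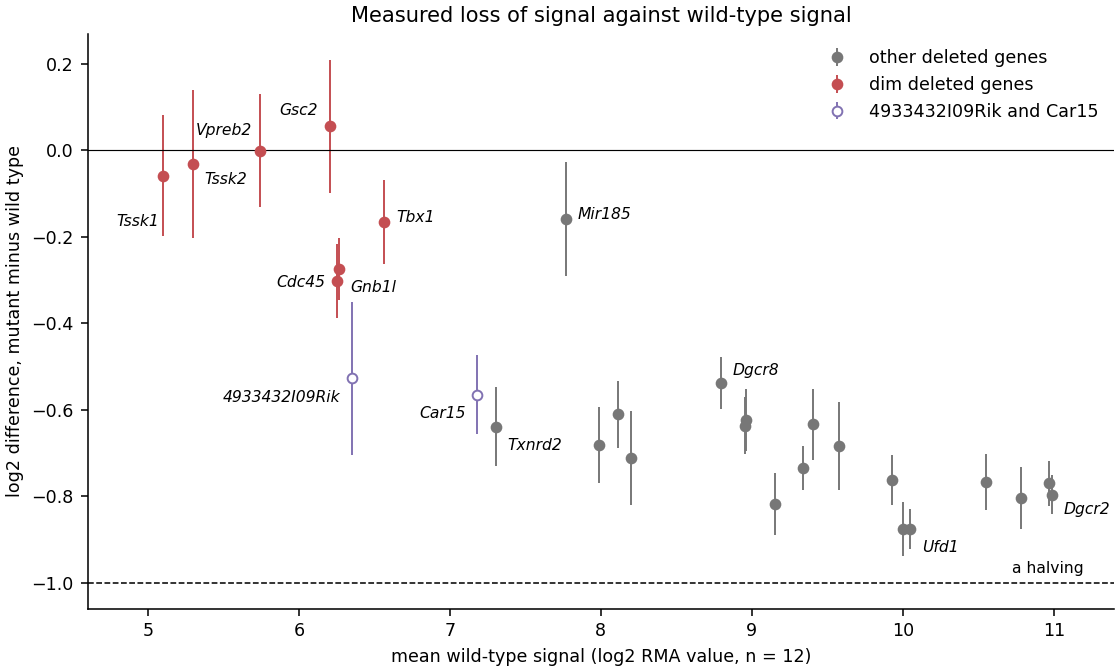
Log2 difference, mutant minus wild type (y axis, with 95% intervals), against mean wild-type signal (x axis, log2 RMA value, n = 12) for 7 dim (red) and 19 other (grey) deleted genes and 2 further genes (open). The dashed line marks a halving at -1, which none of the intervals reaches. The dim genes lie between -0.30 and 0.06.

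Within the 7 genes the relation had the same direction, with a slope of -0.12, r = -0.48 and rho = -0.50. Gsc2, Cdc45 and Gnb1l had nearly equal wild-type signals, yet the log2 difference of Cdc45 minus that of Gsc2 was -0.36 ± 0.09 (SE), with an interval from -0.55 to -0.16. For Gnb1l minus Gsc2 it was -0.33 ± 0.07, from -0.48 to -0.18. These pairs were chosen after their values were seen and are given without a test. Cdc45 and Gnb1l differed from each other by -0.03 ± 0.06, with an interval from -0.14 to 0.09. Tbx1, brighter than both, had the smaller measured loss, with an interval from -0.23 to -0.04 for Cdc45 minus Tbx1 and from -0.23 to 0.02 for Gnb1l minus Tbx1.

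The long noncoding RNA gene 4933432I09Rik, which lies in the segment but was not among the listed genes, was looked at because its signal fell inside the range of the 7. It had a mean of 6.35 ± 0.27 (SD, n = 12) in wild types and 5.82 ± 0.16 in mutants. Wild types ran from 5.89 to 6.89 and mutants from 5.58 to 6.13, with 8 of 12 mutants below every wild type. Mutants lay lower by a log2 difference of -0.53 ± 0.09 (SE), a loss of 30.6% (limma, adjusted p = 0.000591). Among the first 12 arrays it came to -0.36, without passing the test, and among the last 12 to -0.68 (limma, adjusted p = 0.334 and 0.0305). In the other direction Mir185, whose row reports a miRNA precursor, had a wild-type signal of 7.77 and a difference of -0.16 ± 0.06. Car15, a carbonic anhydrase gene beside Dgcr2 and also not among the listed genes, had a wild-type signal of 7.18 and a log2 difference of -0.57 ± 0.04 (SE), a loss of 32.4% (limma, adjusted p = 1.58e-09). All 12 mutants lay below every wild type, as in most of the listed genes. With 4933432I09Rik and Car15 added to the listed genes and Mir185 left out, r was -0.88.

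The same pattern was followed array by array, as the deviation of each gene from the mean of the wild types. The slope of that deviation on wild-type signal over the 26 genes ran from -0.19 to -0.12 in the 12 mutants, with a mean of -0.15 ± 0.02 (SD). In the 12 wild types, each set against the others, it ran from -0.04 to 0.01. The groups did not overlap. That deleted genes fall in mutants follows from the deletion, and wild types set against each other have no slope on average by construction. The mean of the mutant slopes is the slope over genes already given, so the separation adds no separate support. Wild-type signal, the axis of this slope, also chose the dim genes. The median deviation over the 7 dim genes ran from -0.22 to 0.06 in mutants and from -0.10 to 0.13 in wild types. The median over the 19 others ran from -0.77 to -0.67 in mutants. In these medians mutants thus overlapped wild types over the dim genes and lay apart from them over the others. Single genes departed from this, as Gnb1l separated the genotypes and Mir185, among the others, did not.

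**Figure D4:**
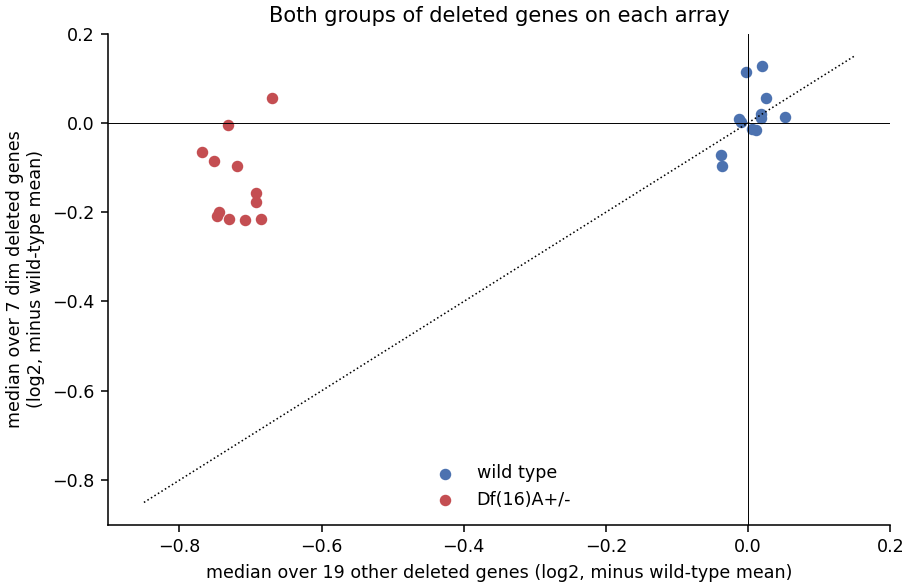
Median deviation from the wild-type mean (log2) over the 7 dim deleted genes (y axis) against that over the 19 other deleted genes (x axis), 1 point per array, with wild types in blue and mutants in red (n = 12 each). The dotted line marks equal deviations. All 12 mutants lie above it, between -0.77 and -0.67 on the x axis.

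Precision fell with signal. The median SE of the log2 difference was 0.06 over the 7 genes and 0.03 over the 19 others. In genes outside the list the median residual SD was 0.18 in the lowest 25% of wild-type signal and 0.06 in the highest 25%. Cdc45 and Gnb1l, with SEs of 0.04 and 0.03, were the most precise of the 7, and Tssk2 the least.

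Along the chromosome the dim genes lay among genes with large losses. The flanking genes named here are the nearest others with a single-symbol row, and rows with several symbols were passed over. Tssk1 and Tssk2 are flanked by Dgcr2, an adhesion receptor-like gene (-0.80 ± 0.02), and Ess2, a nuclear protein gene (-0.73 ± 0.02). Gsc2 lies between Ess2 and Slc25a1 (-0.88 ± 0.03), and Vpreb2 between Slc25a1 and Dgcr6 (-0.62 ± 0.04). Gnb1l and Tbx1 are neighbours, between Txnrd2, the mitochondrial thioredoxin reductase (-0.64 ± 0.04), and Cldn5, a tight-junction gene (-0.63 ± 0.04). Cdc45 lies between Cldn5 and Ufd1 (-0.88 ± 0.02). Cdc45 and Ufd1, whose start windows overlap, differed in their log2 differences by 0.57 ± 0.05 (SE). All 7 flanking genes fell, with adjusted p of 1.17e-10 or less (limma).

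**Figure D5:**
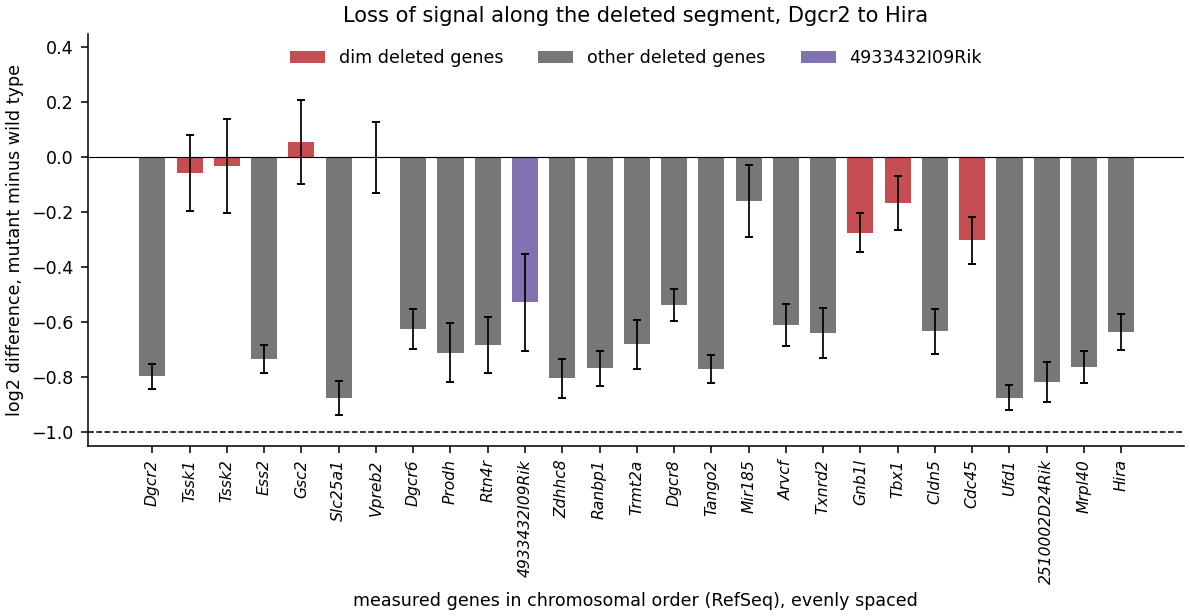
Log2 difference, mutant minus wild type (bars, with 95% intervals), for the 27 genes with a single-symbol row from Dgcr2 to Hira in RefSeq order, evenly spaced. Red bars are the 7 dim genes, grey bars the other listed genes and the violet bar is 4933432I09Rik. The dashed line marks a halving. Short red bars stand between grey bars of -0.62 to -0.88.

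Genes with the most similar pattern over the 24 arrays were found by Pearson's correlation. For Cdc45 they were Rtn4r, the Nogo receptor (0.89), Prodh, a proline-degrading enzyme (0.89), and Dgcr2 (0.85). For Gnb1l they were 2510002D24Rik (0.90), Slc25a1 (0.88) and Dgcr2 (0.88). Of the 20 most similar genes, 18 were other deleted genes for each of the pair. The correlation spans both genotypes, so it contains the genotype difference already given and adds no separate support. For Tbx1 they were Tdg, a DNA glycosylase (0.76), Cdc45 (0.71) and Bop1, a ribosome biogenesis factor (0.69).

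None of the 19 other deleted genes was among the 20 most similar to Tbx1, Tssk1, Tssk2, Gsc2 or Vpreb2. Their median rank among 18819 genes was 56 for Tbx1, 3581 for Tssk1, 6591 for Tssk2, 10430 for Vpreb2 and 14555 for Gsc2. The genes most similar to Tssk1 were Nlrp1a (0.66), Olfr961 (0.65) and Rilpl2 (0.61), and to Tssk2 Cdyl2 (0.75), Cd200r1 (0.69) and Zbtb16 (0.67). For Gsc2 they were Zfp607b (0.70), Ddx19b (0.64) and Nfatc2 (0.61). For Vpreb2 they were Mst1 (0.75), Slc18a1 (0.74) and Clec2g (0.73). Each is the highest of 18819 correlations over 24 arrays and is given as description.

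Genes that work with the 7, or resemble them, were examined as lists. Of 24 measured replication factors that act with Cdc45, none passed the test in either direction, with a median of -0.02. Orc3, of the origin recognition complex, had -0.09 ± 0.03, Mcm10, a replication initiation factor, 0.10 ± 0.04 and Cdc7, a replication kinase, -0.10 ± 0.04. Of 7 markers of dividing cells none passed, and their median was -0.0042. The lowest p-values among them were those of Top2a, a topoisomerase, at -0.19 ± 0.10, and Mki67, the Ki-67 antigen, at -0.19 ± 0.12. Their part in the value of Cdc45 was not tested. Of 15 other T-box genes 1 rose, Tbx22, by 0.22 ± 0.05 (limma, adjusted p = 0.0325), against 0.531% of all genes called higher. Tbx22 had a wild-type signal of 5.24, within the range that holds most receptors. Tbr1, the T-box gene of cortical projection neurons, had -0.06 ± 0.03. Of 18 genes listed around Tbx1 in development none passed, with a median of -0.0034 and 10 of 18 below 0. Hes1, a Notch target, had 0.18 ± 0.06 and Cyp26b1, which degrades retinoic acid, 0.13 ± 0.04.

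Of 18 measured spermatid genes none passed, with a median of 0.03, beside 0.03 for all genes in the signal range of the 7. Tssk3, another kinase of the family, had 0.16 ± 0.05 and Tnp1, a transition protein of sperm chromatin, 0.25 ± 0.09. Of 10 genes related to goosecoid or to midline patterning none passed, with a median of 0.09 and 2 of 10 below 0. Gsc itself had 0.09 ± 0.07. Of 11 genes of pre-B cells none passed. Cd79a, a part of the B cell receptor, had -0.33 ± 0.13 (limma, adjusted p = 0.29) and Blnk, an adaptor of that receptor, 0.13 ± 0.04.

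The 6 measured blood markers, all below 0 with a median of -0.41 and none past the test, varied more. Their mean signal ran from 5.64 to 6.40 in mutants and from 5.87 to 8.56 in wild types, and their part in the value of Vpreb2 was not tested. Of 5 G protein beta subunits none passed, with a median of -0.0034. Of 9 measured kinases of the PIKK family and their chaperones, to which Gnb1l has been linked, none passed, with a median of 0.0077 and values between -0.04 and 0.06.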

How the data were processed

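The deposited table holds log2 values that the authors made with RMA (robust multi-array average), per the submitters' processing notes, for 35556 probe sets on 24 arrays. The sources used here give neither its settings nor a genome build. The log2 scale was read from the values, which lay between 1.82 and 14.49. Gene symbols came from the annotation of the platform, updated by Entrez identifier to RefSeq. The brightest probe set with a single symbol stood for a gene, which gave 18820 genes. Genotypes were compared with limma 3.58.1 (lmFit and eBayes with a genotype term) under R 4.3.3, adjusted by Benjamini-Hochberg over all genes with a threshold of 0.05. Intervals are 95% limma intervals, or, for a difference between 2 genes, intervals from the spread of that difference over arrays with pooled variance. The share of signal lost is 100% minus the fold. The limma step was tested on simulated independent values with known shifts, which did not include the shift of dim genes seen here. The number of arrays limits the precision. Members, lists and named-gene rules (all members, the deleted genes nearest above them in signal or with the largest decreases, the 3 best correlations, up to 3 smallest p per list, and close paralogs) were chosen with earlier results of these data known.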

Additional observations from a re-analysis of the deposited data

How the results depend on the processing

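Alternatives covered normalization, variance trend, array weights, probe set choice and a filter on dim genes. They also covered the replicate block, array number and leaving out 3 mutant arrays that stood apart in earlier work. The count of 2 genes lower held in 10 of 12 alternatives. With the first 12 arrays alone it was 1 and with the last 12 alone it was 0, where fewer arrays enter. There Cdc45 no longer passed (-0.27 and -0.30), nor Gnb1l over arrays 13 to 24 (-0.18). Gsc2 turned to -0.017 over arrays 1 to 12. Vpreb2 turned to 0.0086 with array weights, 0.0069 with a term for array order, 0.0092 over arrays 1 to 12 and 0.0047 over arrays 13 to 24, and the cause was not tested. Without genes whose mean signal lay below 5.45, which removed Tssk1 and Tssk2, the median of the remaining 5 was -0.17 and its difference from the other deleted genes 0.55, against 0.65 with all 7. Tssk1, Tssk2 and Tbx1 kept their direction and did not pass in any setting that tested them.

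The slope lay between -0.15 and -0.14 in 16 settings, and was -0.090 without the dim genes (-0.06 without Mir185 as well), an alternative added with the values in view, as was including 4933432I09Rik and Car15. Arrays of the same replicate number in the 2 genotypes had deviations correlated between -0.08 and 0.31, over 0.1 in 6 of 12 pairs. Their median was 0.096, against -0.014 for mutant and wild-type arrays of different number. The numbers are not said to mark litters, so they were not treated as pairs in the main fit. With the replicate block the count stayed at 2, with adjusted p of 6.5e-05 for Cdc45, 0.000796 for Gnb1l and 0.149 for Tbx1 (limma). Without a detection call, signal over background is unknown for single probe sets.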
